A study of Mus musculus with 28 samples.

Results

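Tll1, Lbh, Cgref1 and Ubash3b are 4 mouse genes, of 14711 in the deposited tables, that were selected on measured values: their log2 fold change after kainic acid was larger in ribosome-bound RNA of CaMK2a-Cre neurons than in that of PV-Cre neurons. All 4 were found by symbol and were counted in all 4 tables of kainic acid against saline, which share 12878 genes. Because the immunoprecipitates chose them, every value of theirs from an immunoprecipitate is a description with no test, and tests of these 4 genes were kept to the input libraries. The larger fold in CaMK2a-Cre neurons did not go with a higher level there, except for Cgref1 after kainic acid. Before kainic acid all 4 genes were higher in the PV-Cre than in the CaMK2a-Cre immunoprecipitate, by 42.3-fold for Tll1, 14.1-fold for Ubash3b, 7.30-fold for Lbh and 2.93-fold for Cgref1, and after it the ratios were 1.96, 3.37, 1.57 and 0.668.

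The RNA came from the CA1 region of the hippocampus of C57BL/6 mice aged 3 to 4 weeks. All mice carried 1 copy of LSL-Rpl22-HA, a ribosomal protein gene that gains a haemagglutinin tag in cells with Cre, so that an antibody to the tag pulls down the ribosomes of those cells with their mRNA (RiboTag). The groups were kainic acid (KA), an agonist of glutamate receptors that drives strong firing, and phosphate-buffered saline (PBS), each in CaMK2a-Cre/+; LSL-Rpl22-HA/+ mice, whose Cre is driven from a gene of excitatory forebrain neurons, and in PV-Cre/+; LSL-Rpl22-HA/+ mice, whose Cre is driven from the parvalbumin gene of fast-spiking interneurons. Tissue was taken 6 h after injection, and each library pooled 4 mice in the CaMK2a-Cre line (n = 3 per group) or 9 to 10 mice in the PV-Cre line (n = 4 per group). The labels put the PBS groups at 6 h as well, while the column headings of the deposited tables mark them 0 h. Each lysate gave an immunoprecipitate (IP) and an input of whole CA1 tissue, so the inputs are other libraries but not other animals. Amplification began from 20 ng of RNA in the CaMK2a-Cre line and 2.5 ng in the PV-Cre line, so that line, pool size and RNA amount cannot be told apart between the lines.

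The 28 libraries held 6061339 to 15847300 counts. Of 9 measured genes in the list for pyramidal and excitatory neurons, 7 were above input in the CaMK2a IP both after KA and after PBS, and all 9 were below input in the PV IP. Of 9 measured genes in the list for PV and other GABAergic interneurons, all were above input in the PV IP, with a median log2 ratio of 2.22 after KA and 2.03 after PBS, and all were below input in the CaMK2a IP, at -2.33 after KA and -2.59 after PBS. Replicate 4 of the PV-Cre line stood apart from replicates 1 to 3: its KA and PBS inputs deviated from their group means together with a correlation of 0.682 over genes, against 0.159 to 0.194 for the other three numbers. The KA effects, gains and ratios between immunoprecipitates of the 4 genes that rest on it are given with and without it.

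The 4 proteins belong to different pathways. Tll1 encodes tolloid-like 1, a secreted zinc metalloprotease of the BMP1 family that cuts chordin, an extracellular inhibitor of bone morphogenetic proteins (BMPs), and that matures procollagens. Lbh encodes limb bud and heart, a small transcriptional cofactor known as a target of Wnt signalling. Cgref1 encodes a secreted protein with EF-hand calcium-binding motifs, named for its effect on cell growth. Ubash3b encodes a protein tyrosine phosphatase, also called Sts-1, that binds Cbl ubiquitin ligases and acts on Syk family kinases and receptor tyrosine kinases. Genes induced by neuronal firing are commonly bound near their starts by CREB, by AP-1 factors of the Fos and Jun families, by EGR factors, by serum response factor and by NPAS4.

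In the deposited tables, on mm10, Tll1 (gene ID 21892) lies on chromosome 8 from 64013098 to 64205993 on the minus strand with 23 exons, and Lbh (77889) on chromosome 17 from 72918305 to 72941946 on the plus strand with 3. Cgref1 (68567) lies on chromosome 5 from 30933143 to 30945480 on the minus strand with 6 exons, and Ubash3b (72828) on chromosome 9 from 41011091 to 41161692 on the minus strand with 18. No exon of another GENCODE M21 gene shared a base with their exons. Strandedness of the counting was not given in the sources used here.

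The sequences around the gene starts are shown because 3 of these genes changed together in whole tissue. They are RefSeq promoters (GRCm38.p6) of 250 bases before and 50 after a start, each read 5′ to 3′ on the gene's own strand; all 4 genes matched, with 6 starts among them, and the start nearest the 5′ end of the deposited gene is printed. Capitals mark matches, on either strand, to TGACG (the core of the cAMP response element), TGANTCA (AP-1), GCGNGGGCG (EGR), TCGTG (NPAS4 site) or the CArG box of serum response factor.
Tll1, chr8:64205959-64206258, minus strand: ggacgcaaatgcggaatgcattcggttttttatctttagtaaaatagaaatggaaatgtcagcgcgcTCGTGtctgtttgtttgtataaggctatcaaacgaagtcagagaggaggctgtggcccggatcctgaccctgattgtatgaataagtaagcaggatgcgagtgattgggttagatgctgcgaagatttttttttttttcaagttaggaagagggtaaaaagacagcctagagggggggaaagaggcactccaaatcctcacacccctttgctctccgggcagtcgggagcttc
Lbh, chr17:72918055-72918354, plus strand: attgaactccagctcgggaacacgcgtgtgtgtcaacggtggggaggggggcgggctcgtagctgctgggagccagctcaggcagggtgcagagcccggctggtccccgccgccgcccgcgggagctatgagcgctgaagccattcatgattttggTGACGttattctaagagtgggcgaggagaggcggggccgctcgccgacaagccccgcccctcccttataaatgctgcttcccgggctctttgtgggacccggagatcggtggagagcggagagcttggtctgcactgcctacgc
Cgref1, chr5:30945431-30945730, minus strand: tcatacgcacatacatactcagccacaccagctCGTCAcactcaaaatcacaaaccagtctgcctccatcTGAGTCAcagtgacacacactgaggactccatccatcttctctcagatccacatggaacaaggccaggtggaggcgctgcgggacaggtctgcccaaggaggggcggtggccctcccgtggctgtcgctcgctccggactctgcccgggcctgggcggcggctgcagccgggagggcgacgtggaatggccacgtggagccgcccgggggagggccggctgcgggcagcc
Ubash3b, chr9:41158013-41158312, minus strand: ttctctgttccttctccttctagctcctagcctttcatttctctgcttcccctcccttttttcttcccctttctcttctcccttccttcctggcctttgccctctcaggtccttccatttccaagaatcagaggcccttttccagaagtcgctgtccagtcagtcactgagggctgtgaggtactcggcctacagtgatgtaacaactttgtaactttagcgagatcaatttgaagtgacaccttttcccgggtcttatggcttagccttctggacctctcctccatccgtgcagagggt
The Tll1 window held 1 match, to TCGTG, and the Lbh window held 1, to TGACG. The Cgref1 window held TGAGTCA, an AP-1 match that reads the same on both strands, and 1 TGACG on the opposite strand. No letters of the 5 motifs were found in the Ubash3b window, whose start lies 3630 bases inside the 5′ end of the deposited gene. Among all 32851 RefSeq mouse promoters of the same length, 20.8% held TGACG, 16.0% TCGTG, 7.81% TGANTCA, 5.55% GCGNGGGCG and 1.63% a CArG box, so each match is one that many promoters carry.

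Whole CA1 tissue was the place where the response could be tested in libraries other than those that chose the genes. These inputs came from the same lysates, so their p-values are not independent of the choice. Tll1, Lbh and Cgref1 rose strongly after KA in the inputs of both lines, whereas Ubash3b was not called in either. In such pooled tissue fewer cells of a type and less RNA per cell cannot be told apart. Values per library are CPM, counts divided by a library size that was scaled by TMM factors over all 28 libraries, and fold changes come from edgeR's quasi-likelihood test with Benjamini-Hochberg adjustment over all genes tested. Tll1 had 40.7, 53.6 and 52.8 CPM in the CaMK2a inputs after KA, against 3.75, 3.71 and 1.59 CPM after PBS. In the PV inputs it had 59.6, 73.7, 81.2 and 50.7 CPM after KA, against 6.41, 5.81, 5.36 and 4.43 CPM after PBS. All 7 KA inputs were thus far above all 7 PBS inputs. For how many of all genes the KA and PBS inputs did not overlap was not counted. The log2 fold change of Tll1 was 3.96 ± 0.23 (SE) in the CaMK2a line, a 15.6-fold rise (edgeR, adjusted p = 3.2e-10), and 3.56 ± 0.21 in the PV line, an 11.8-fold rise (edgeR, adjusted p = 1.11e-06).

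Cgref1 behaved much like it at a smaller size. It had 111, 82.6 and 123 CPM in the CaMK2a inputs after KA, against 12.9, 14.6 and 11.9 CPM after PBS. The PV inputs held 64.2, 77.1, 95.8 and 88.5 CPM after KA, against 10.9, 9.93, 11.5 and 12.4 CPM after PBS. Its groups did not overlap in either line, a separation whose share over all genes was not counted. The rise was 8.02-fold in the CaMK2a line (log2 3.00 ± 0.16, edgeR, adjusted p = 1.34e-10) and 7.11-fold in the PV line (log2 2.83 ± 0.18, edgeR, adjusted p = 1.25e-06).

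Lbh, which was well expressed in whole tissue before KA, rose by a smaller factor. Its CaMK2a inputs held 271, 142 and 210 CPM after KA, against 42.1, 48.4 and 49.97 CPM after PBS. Its PV inputs held 155, 109, 164 and 182 CPM after KA, against 46.9, 53.1, 51.2 and 44.1 CPM after PBS. The lowest KA input, at 109 CPM, was still above every PBS input. The rise was 4.46-fold in the CaMK2a line (log2 2.16 ± 0.17, edgeR, adjusted p = 2.35e-08) and 3.06-fold in the PV line (log2 1.61 ± 0.17, edgeR, adjusted p = 6.58e-05).

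Ubash3b, the phosphatase, overlapped between KA and PBS in the inputs of both lines. It had 74.5, 78.1 and 69.5 CPM in the CaMK2a inputs after KA, against 76.9, 71.2 and 60.8 CPM after PBS. In the PV inputs it had 121, 122, 119 and 73.0 CPM after KA, against 112, 108, 118 and 64.2 CPM after PBS, with replicate 4 lowest in both groups. The fold was 1.06 in the CaMK2a line (95% interval 0.898 to 1.26, edgeR, adjusted p = 0.589) and 1.06 in the PV line (0.766 to 1.48, edgeR, adjusted p = 0.854), so a change of more than about 1.5-fold in either direction lay outside both intervals.

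**Figure D1:**
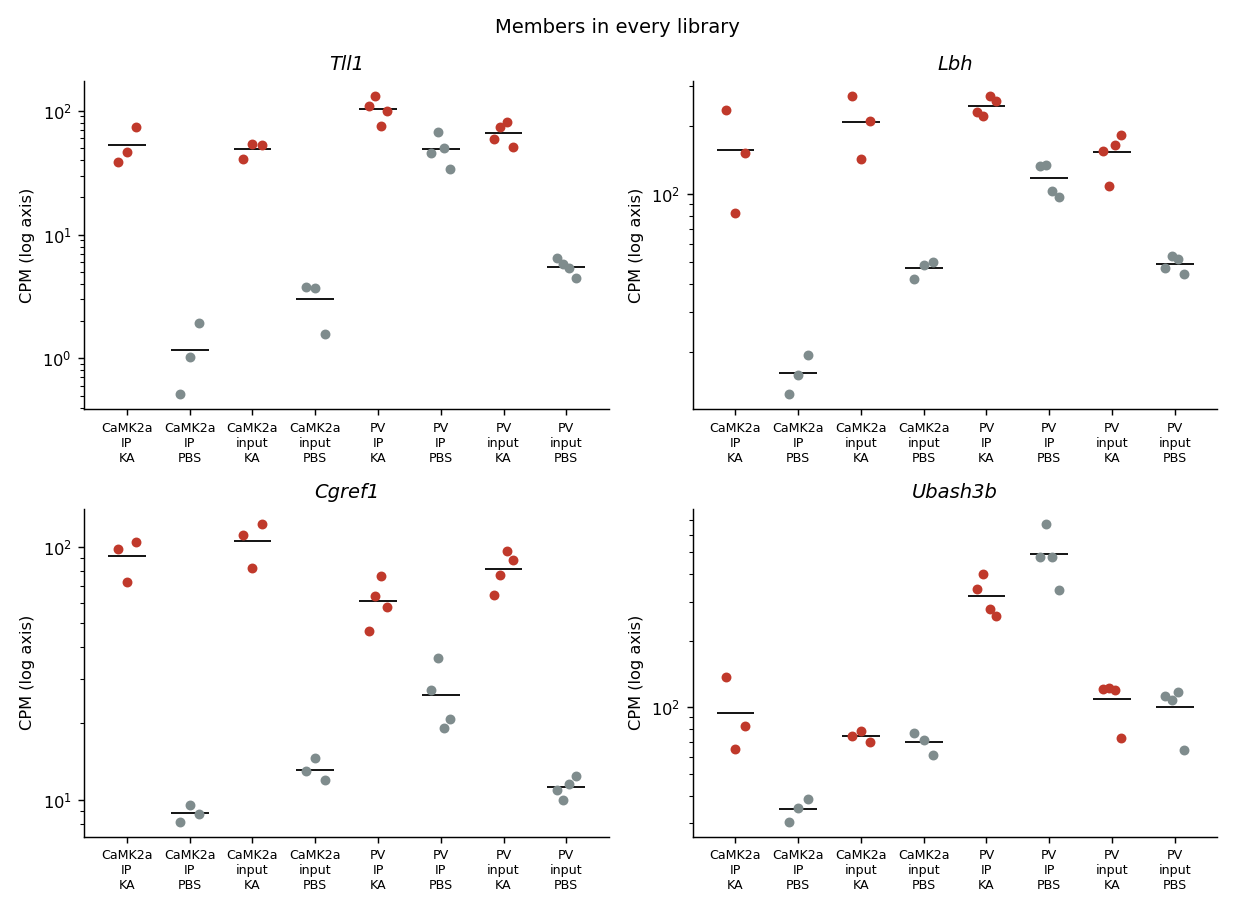
CPM (log axis) of the 4 genes in each of the 28 libraries (points) with the group mean (line), KA in red and PBS in grey. Tll1 in the CaMK2a IP averaged 53.2 CPM after KA and 1.16 CPM after PBS, while its PBS libraries of the PV IP averaged 49.2 CPM.

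In the CaMK2a inputs 3 of the 4 genes were called higher, where 19.3% of 11287 genes tested were called higher. In the PV inputs the same 3 were called, where 8.21% of 11145 genes were called higher. Of the PV inputs after KA, only replicate 4 deviated most like the PBS input of its own number, so the numbers were not shown to be pairs. With the replicate number as a block, 1835 genes were called higher and 1590 lower in the PV inputs, against 915 and 374 without it. The same 3 genes were called, with log2 fold changes of 3.54 for Tll1, 2.82 for Cgref1 and 1.60 for Lbh. With replicates 1 to 3 alone these log2 fold changes were 3.58, 2.85 and 1.48, and Ubash3b stood at 0.08. Tll1 and Cgref1 were among the most strongly raised genes of the tissue. They stood at rank 78 and rank 140 from the top of 11287 in the CaMK2a line.

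The response of whole tissue was then compared between the lines. The difference in log2 fold change, CaMK2a input minus PV input, was 0.43 ± 0.34 for Tll1, 0.56 ± 0.28 for Lbh, 0.20 ± 0.25 for Cgref1 and 0.02 ± 0.28 for Ubash3b (SE, edgeR, adjusted p = 1.00 for each). With PV replicates 1 to 3 it was 0.34, 0.64, 0.11 and -0.03. The 95% interval of the ratio of folds ran from 0.819 to 2.22 for Tll1, from 0.977 to 2.22 for Lbh, from 0.793 to 1.65 for Cgref1 and from 0.673 to 1.53 for Ubash3b. Across 11816 genes edgeR called 0 higher, or 0%, with 210 higher and 126 lower at an unadjusted p under 0.05, and DESeq2 called 4 higher.

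In the ribosome-bound RNA of CaMK2a-Cre neurons all 4 genes were far higher after KA. Tll1 stood at 38.5, 46.3 and 74.6 CPM after KA, against 0.514, 1.03 and 1.95 CPM after PBS, the PBS values coming from 8, 8 and 20 counts. Its 48.4-fold difference (log2 5.60 ± 0.39) therefore rests on few counts in the PBS libraries, and the log2 value was 5.10 to 6.23 when 1 library was left out. Cgref1 had 97.9, 72.5 and 105 CPM after KA, against 8.17, 9.52 and 8.76 CPM after PBS, a log2 fold change of 3.40 ± 0.17. Its libraries agreed closely, with coefficients of variation of 18.4% after KA and 7.70% after PBS.

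Lbh varied more among the KA libraries of the CaMK2a IP, with 236, 82.2 and 152 CPM, against 13.0, 15.8 and 19.3 CPM after PBS, and differed by 3.31 ± 0.34 on the log2 scale. Ubash3b had 137, 64.5 and 82.3 CPM after KA, against 30.5, 35.3 and 38.4 CPM after PBS, a log2 fold change of 1.46 ± 0.24. KA and PBS did not overlap for any of the 4 genes, a description of libraries that chose them. The share of all genes without overlap there was not counted. By the test, a different measure, 19.8% of 10663 genes in the CaMK2a IP were called higher. Lbh and Ubash3b had the same order across the KA lysates, replicate 1 being the highest and replicate 2 the lowest.

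In the PV IP the 4 genes were higher after PBS than in the CaMK2a IP, and their folds with KA were smaller. Tll1 had 110, 132, 76.0 and 99.1 CPM after KA, against 45.8, 66.8, 50.5 and 33.6 CPM after PBS. Lbh had 231, 222, 270 and 258 CPM after KA, against 133, 134, 103 and 97.1 CPM after PBS. Cgref1 had 46.4, 64.0, 76.5 and 57.9 CPM after KA, against 27.2, 36.2, 19.1 and 20.8 CPM after PBS. For these 3 genes every KA library was above every PBS library, and the share of all genes so separated was not counted. By the test, a different measure, 4.05% of 11107 genes were called higher in the PV IP. Their folds were close to one another: 2.08 for Tll1 (log2 1.06 ± 0.24), 2.07 for Lbh (1.05 ± 0.18) and 2.33 for Cgref1 (1.22 ± 0.27). Without replicate 4 their log2 values were 0.94, 0.95 and 1.16.

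Ubash3b was lower after KA in the PV IP. It had 343, 399, 276 and 258 CPM after KA, against 476, 674, 476 and 337 CPM after PBS, so that only the lowest PBS library lay within the KA range. The log2 fold change was -0.65 ± 0.21, or 0.639-fold, and -0.69 without replicate 4. Its folds of 1.06 in whole tissue thus stood beside 2.75 in the CaMK2a IP and 0.639 in the PV IP.

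**Figure D2:**
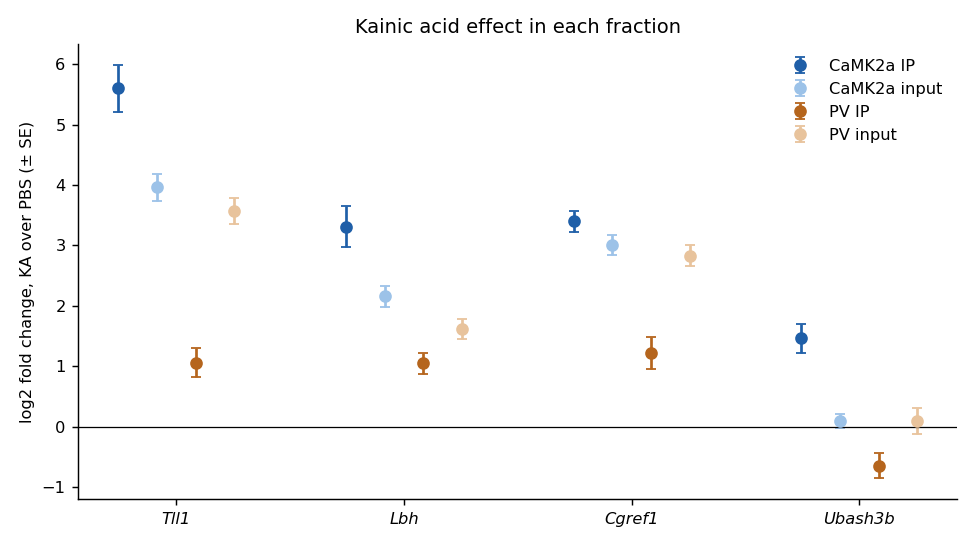
Log2 fold change of KA over PBS (points, ± SE) for the 4 genes in the CaMK2a IP, CaMK2a input, PV IP and PV input. Tll1 runs from 5.60 in the CaMK2a IP to 1.06 in the PV IP with both inputs between, and Ubash3b is near 0 in both inputs.

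The difference in log2 fold change between the immunoprecipitates, CaMK2a minus PV, was 4.51 ± 0.49 for Tll1, 2.25 ± 0.36 for Lbh, 2.17 ± 0.34 for Cgref1 and 2.10 ± 0.35 for Ubash3b. Ranked from the highest, these were 26, 232, 250 and 259 of 11781 genes, and this is the contrast on which the genes were chosen. Leaving out replicate 1 of the KA CaMK2a IP gave 1.80 for Lbh and 1.70 for Ubash3b, and leaving out replicate 3 of the PBS CaMK2a IP gave 5.12 for Tll1. With PV replicates 1 to 3 the 4 values were 4.58, 2.31, 2.18 and 2.10.

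For Tll1 and Lbh the immunoprecipitates had unlike folds but similar gains in level. The gain of Tll1, KA minus PBS, was 52.0 ± 11.0 CPM in the CaMK2a IP and 55.0 ± 13.5 CPM in the PV IP (SE), beside 46.0 ± 4.24 CPM in the CaMK2a input and 60.8 ± 6.89 CPM in the PV input. The gain of Lbh was 141 ± 44.4 CPM in the CaMK2a IP and 129 ± 14.9 CPM in the PV IP. For both genes the gains in the immunoprecipitates lay within 1 SE of each other while the folds differed by 22.8 and 4.76 times. Cgref1 gained 82.9 ± 9.77 CPM in the CaMK2a IP and 35.4 ± 7.37 CPM in the PV IP. Ubash3b differed by 59.9 ± 22.0 CPM in the CaMK2a IP and by -172 ± 76.4 CPM in the PV IP. For these 2 genes the gain as well as the fold was unlike in the immunoprecipitates. These libraries chose the genes, so the gains are a description. With PV replicates 1 to 3 the gains in the PV IP were 51.5 ± 17.5 CPM for Tll1, 118 ± 17.9 CPM for Lbh, 34.8 ± 10.0 CPM for Cgref1 and -203 ± 74.7 CPM for Ubash3b. The gain of Tll1 in the PV input was 65.7 ± 6.34 CPM with these replicates.

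**Figure D3:**
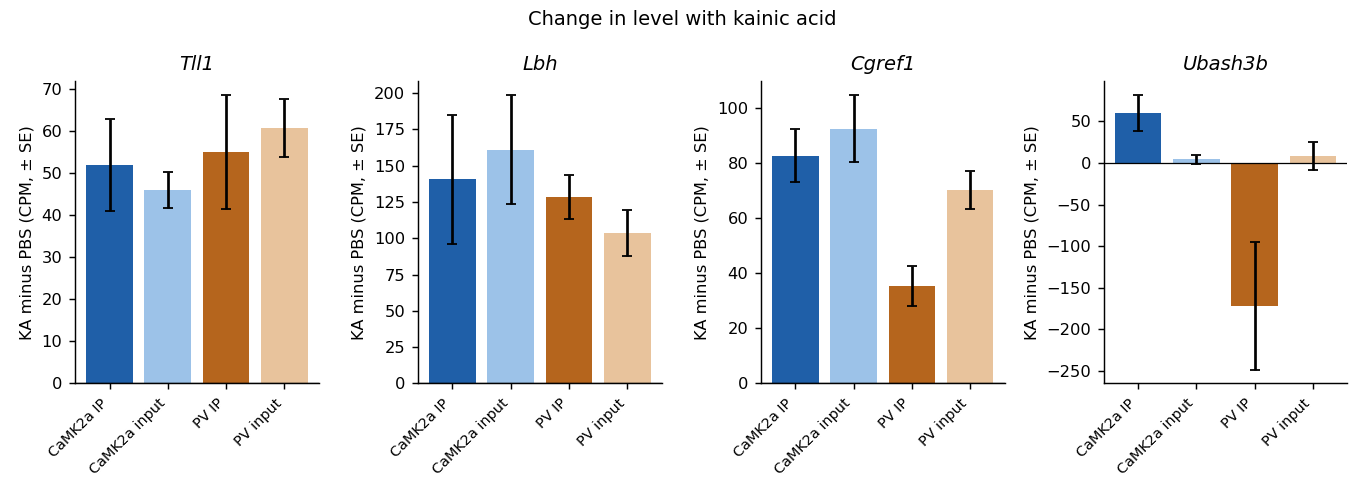
Mean CPM after KA minus mean CPM after PBS (bars, ± SE) in the 4 fractions; each gene has its own axis. The bars of Tll1 are alike in height in both immunoprecipitates, at 52.0 and 55.0 CPM, whereas Ubash3b is above 0 in the CaMK2a IP and below 0 in the PV IP.

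The ratio of IP to input within a lysate gives the CPM of a transcript in the IP relative to whole CA1 tissue, which holds the tagged cells too. Tll1 in the PV line had ratios of 1.84, 1.79, 0.936 and 1.96 after KA, against 7.14, 11.5, 9.43 and 7.57 after PBS. In the CaMK2a line its ratios were 0.947, 0.864 and 1.41 after KA, against 0.137, 0.277 and 1.23 after PBS. After KA no lysate of either line was above 1.96, whereas after PBS Tll1 stood at rank 31 of 11204 genes by PV IP over input.

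Ubash3b in the PV line had log2 ratios of IP over input of 1.60 ± 0.21 after KA and 2.32 ± 0.22 after PBS, the second at rank 122 of 11204. In the CaMK2a line its log2 ratio was 0.33 ± 0.23 after KA and -0.999 ± 0.107 after PBS. Lbh had 0.74 ± 0.19 after KA and 1.29 ± 0.16 after PBS in the PV line, and -0.43 ± 0.32 and -1.54 ± 0.13 in the CaMK2a line. Cgref1 alone lay on both sides of input in the PV line, with -0.36 ± 0.21 after KA and 1.23 ± 0.26 after PBS, beside -0.22 ± 0.18 after KA and -0.57 ± 0.17 after PBS in the CaMK2a line. For each gene the log2 ratio was lower after KA than after PBS in the PV line and higher after KA in the CaMK2a line. That pattern follows in part from the choice of genes, since the ratio moves with the KA effect in the IP. For Tll1 the lysates of the CaMK2a line overlapped, the PBS lysate at 1.23 lying above the KA lysates at 0.947 and 0.864. With any 1 PV library left out, the log2 ratio in the PV line after KA was 0.58 to 0.83 for Tll1, 0.61 to 0.84 for Lbh, -0.48 to -0.25 for Cgref1 and 1.46 to 1.69 for Ubash3b. After PBS it was 3.01 to 3.33 for Tll1, 1.22 to 1.36 for Lbh, 1.04 to 1.36 for Cgref1 and 2.14 to 2.46 for Ubash3b.

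**Figure D4:**
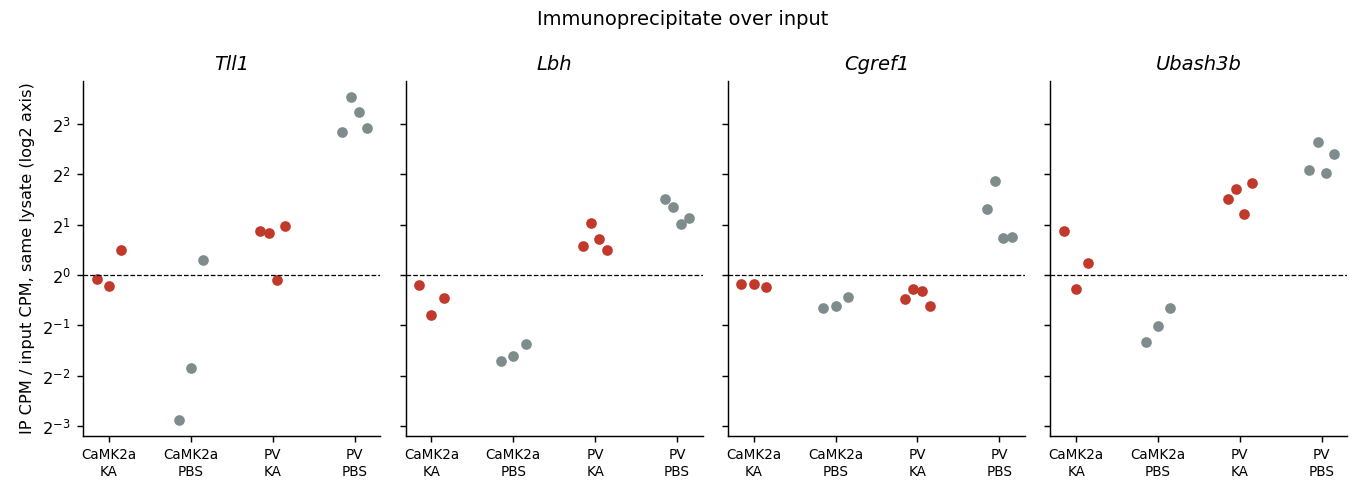
CPM in the IP over CPM in the input of the same lysate (log2 axis, 1 point per lysate), KA in red and PBS in grey; the dashed line marks equal levels. Tll1 in the PV line lies between 0.936 and 1.96 after KA and between 7.14 and 11.5 after PBS.

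Levels were also compared directly between the immunoprecipitates. After PBS the PV IP and the CaMK2a IP did not overlap for any of the 4 genes: Ubash3b averaged 491 and 34.7 CPM, Lbh 117 and 16.0 CPM, Tll1 49.2 and 1.16 CPM and Cgref1 25.8 and 8.82 CPM in the PV and CaMK2a IP. The same PBS libraries enter the contrast on which the genes were chosen, and the share of all genes without overlap there was not counted. After KA Ubash3b still did not overlap, with means of 319 CPM in the PV IP and 94.7 CPM in the CaMK2a IP. Tll1 averaged 104 CPM in the PV IP and 53.2 CPM in the CaMK2a IP after KA, and its libraries did not overlap with TMM scaling but did overlap in plain CPM. Lbh, at 245 and 157 CPM, and Cgref1, at 61.2 and 91.7 CPM in the PV and CaMK2a IP, overlapped after KA. With PV replicates 1 to 3 the ratio of PV IP to CaMK2a IP was 1.99 after KA and 46.7 after PBS for Tll1, 3.59 and 15.6 for Ubash3b, 1.54 and 7.71 for Lbh and 0.680 and 3.12 for Cgref1.

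Across all 8 groups Tll1 was highest in the PV IP after KA, whose range of 76.0 to 132 CPM overlapped that of the PV input after KA, 50.7 to 81.2 CPM. The CaMK2a IP after KA, the PV IP after PBS and the CaMK2a input after KA followed with overlapping libraries and means of 53.2, 49.2 and 49.0 CPM. The PV input after PBS, at 4.43 to 6.41 CPM, lay above the CaMK2a input after PBS, at 1.59 to 3.75 CPM, and the CaMK2a input overlapped the CaMK2a IP there. For all 4 genes the CaMK2a IP after PBS had the lowest mean of the 8 groups.

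Per kilobase of transcript, in the deposited RPKM, the 4 genes were of unlike abundance. In the CaMK2a IP after KA, Cgref1 had 19.3 ± 3.56, Lbh 14.3 ± 6.96, Ubash3b 3.39 ± 1.34 and Tll1 2.20 ± 0.80 RPKM (SD, n = 3). After PBS they had 1.97 ± 0.18, 1.56 ± 0.29, 1.32 ± 0.14 and 0.051 ± 0.031 RPKM there. In the PV IP after KA the order was Lbh at 21.5 ± 3.36, Cgref1 at 12.3 ± 2.50, Ubash3b at 10.8 ± 1.65 and Tll1 at 4.09 ± 0.88 RPKM (SD, n = 4), against 10.8 ± 1.34, 5.46 ± 1.43, 17.5 ± 3.91 and 2.03 ± 0.44 RPKM after PBS. Tll1, the gene with the largest fold, was the least abundant of the 4 in every one of these groups.

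Markers of the other cell type were present in both immunoprecipitates. In the CaMK2a IP the 9 measured genes of the PV and GABAergic list summed to 382 to 584 CPM after KA and 332 to 436 CPM after PBS, and none was at 0 in a whole group. Among them the log2 fold change with KA in the CaMK2a IP was -1.08 for Pvalb, parvalbumin itself, 0.07 for Slc32a1, the vesicular GABA transporter, 1.06 for Gad1 and 3.58 for the neuropeptide gene Tac1. In the other interneuron list of 8 genes, Npy and Sst stood at 4.03 and 3.12 and the other six between -0.08 for Htr3a and 0.72 for Vip. That list summed to 3254 to 3728 CPM after KA and 2366 to 2736 CPM after PBS. Most of this was Cck, which averaged 2273 CPM after KA and 2289 CPM after PBS, while Sst averaged 835 CPM after KA and 96.7 CPM after PBS. Cck was the 1 gene of that list above input in the CaMK2a IP, by log2 0.64 after KA and 0.88 after PBS. In the PV IP the 9 pyramidal genes summed to 3665 to 6730 CPM after KA and 4445 to 5430 CPM after PBS, with none at 0 and a median log2 ratio to input of -0.51 after KA and -0.89 after PBS. Most of that sum was Camk2a, which averaged 4880 CPM after KA and 4359 CPM after PBS. Glial lists were nearer to input in the PV IP than in the CaMK2a IP. The astrocyte list had a median log2 ratio to input of -0.996 after KA and -0.78 after PBS in the PV IP. In the CaMK2a IP it had -2.77 after KA and -2.87 after PBS. Medians of the oligodendrocyte list were -0.83 after KA and -0.62 after PBS in the PV IP, against -2.77 and -2.58 in the CaMK2a IP. Whether such RNA came from untagged cells, and the part of RNA from untagged cells in the values of the 4 genes, was not tested.

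Genes classically induced by firing were higher in both immunoprecipitates. Their list was chosen with earlier results of these data known, so the share of it called is a description. All 21 measured genes of a list of inducible genes were called higher in the CaMK2a IP, where 19.8% of 10663 genes were called higher and 15.3% lower. With upper-quartile factors 42.4% of the calls in the CaMK2a IP were higher, against 56.4% with TMM. The same list was called higher in full in the PV IP, where 4.05% of 11107 genes were called higher and 0.801% lower. Their median log2 fold change was 3.46 in the CaMK2a IP and 3.96 in the PV IP, against 0.01 and -0.02 over all genes. Fos, Npas4 and Fosb, transcription factors of the early response, had 6.85, 6.84 and 6.67 in the CaMK2a IP and 7.66, 7.33 and 8.13 in the PV IP. Among the 20 inducible genes with a value in every fit, the difference CaMK2a minus PV ranged from -2.33 to 1.49, with 14 below 0. Tll1, Lbh, Cgref1 and Ubash3b were all above 2 in that difference, which follows from how they were chosen. The PV IP after PBS is part of the same contrast, so their level above input there is not independent of the choice either.

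**Figure D5:**
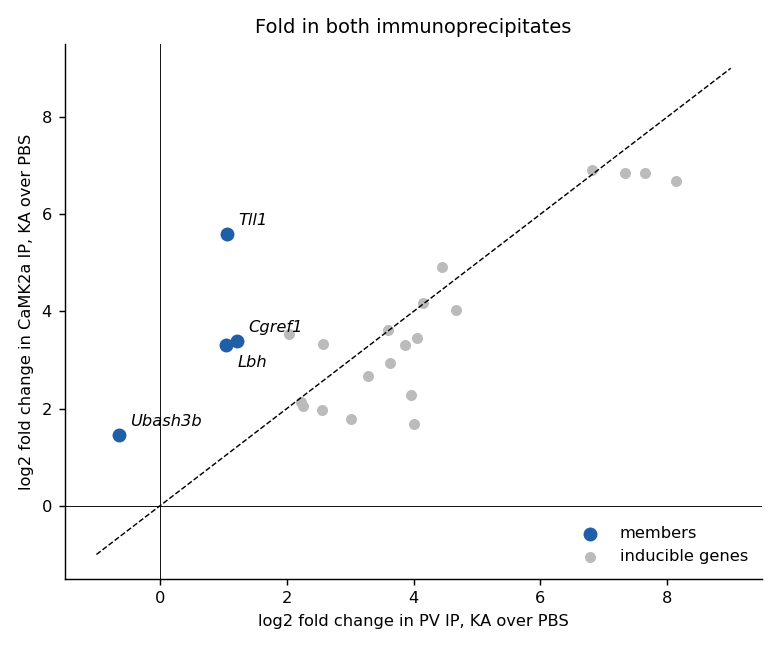
Log2 fold change of KA over PBS in the PV IP (x axis) and in the CaMK2a IP (y axis) for the 4 genes (blue) and 20 inducible genes (grey); the dashed line marks equal folds. The 4 genes lie above the line, with Tll1 at 1.06 and 5.60, while 14 of the 20 inducible genes have the larger fold in the PV IP.

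The pathways of the 4 proteins were followed in the CaMK2a input by lists of related genes, also chosen with earlier results known. Of 33 tested genes of the tolloid and BMP pathway, 10 were called higher and 3 lower, against 19.3% and 15.7% of all genes, with a median log2 fold change of 0.13 against -0.02. The 3 with the largest changes were Lox, a collagen cross-linking enzyme, at 2.57 ± 0.49, Smad7, an intracellular inhibitor of BMP and TGF-beta signalling, at 2.29 ± 0.17, and Id1, a BMP target, at 2.04 ± 0.20 (edgeR, adjusted p = 0.00053, 7.36e-09 and 4.21e-07). In the PV input 6 of 32 were called higher, where 8.21% of all genes were called higher and 3.36% lower, and Lox and Smad7 were among them at 2.84 ± 0.51 and 1.47 ± 0.34.

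Of 10 tested Wnt and beta-catenin target genes 3 were called higher in the CaMK2a input, with a list median of 0.15. They were Dkk2, a secreted modulator of Wnt receptors, at 2.56 ± 0.71, the transcription factor gene Tcf7 at 0.99 ± 0.33 and Nkd1, an intracellular Wnt inhibitor, at 0.62 ± 0.20. Of 9 tested genes of the Cbl, Syk and receptor tyrosine kinase list 4 were called higher, with a median of 0.22: Syk at 1.16 ± 0.37, Ntrk2, the BDNF receptor gene, at 0.69 ± 0.09 and Cbl at 0.64 ± 0.11 had the largest values. Of 15 EF-hand genes of the secretory pathway 2 were called higher and 2 lower, with a median of -0.06; the largest changes were those of Rcn1 at -0.68 ± 0.23, Smoc2 at -0.67 ± 0.20 and Sparc at 0.42 ± 0.09. The shares of the 4 pathway lists called higher ranged from 2 of 15 to 4 of 9, beside 19.3% of all genes.

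The genes whose pattern was most like each of the 4 were found by Pearson correlation of log2 CPM over the 28 libraries, among 9782 genes with a mean of at least 1. The libraries share lysates, treatment and line, so these values describe similarity of profile over 8 groups only. Tll1 was most like Entpd7 (r = 0.945), Vegfa (0.945) and Fam98a (0.940), and Lbh most like Vegfa (0.965), Entpd7 (0.946) and Zfp516 (0.937). Vegfa, the vascular endothelial growth factor gene, averaged 60.5 CPM after KA and 12.3 CPM after PBS in the CaMK2a IP, and 91.7 CPM after KA and 46.1 CPM after PBS in the PV IP. Its log2 fold change was 2.31 in the CaMK2a IP and 0.97 in the PV IP, with log2 ratios of PV IP over input of 0.50 after KA and 0.97 after PBS.

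Cgref1 was most like Bag3 (r = 0.974), a co-chaperone gene, followed by Gpr3 (0.956), which encodes a constitutively active receptor, and Txnl1 (0.945). Bag3 had log2 fold changes of 5.15 in the CaMK2a IP and 1.83 in the PV IP. Ubash3b was most like Frmd5 (0.958), Rimkla (0.941) and Lancl3 (0.937), which differed little with KA, at 0.39, 0.05 and 0.24 on the log2 scale in the CaMK2a IP, and were above input in the PV IP after PBS by 1.20, 2.16 and 1.99. Among the 4 genes themselves r was 0.930 between Tll1 and Lbh, 0.872 between Lbh and Cgref1 and 0.855 between Tll1 and Cgref1, and 0.663, 0.594 and 0.241 between Ubash3b and Tll1, Lbh and Cgref1.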

How the data were processed

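Tll1, Lbh, Cgref1 and Ubash3b, and the gene lists set beside them, were chosen with earlier results of these data known. The values used were raw counts per gene and RPKM that the authors deposited in tables of all genes tested, split by direction of change, which were joined by symbol; 189281 counts listed in more than 1 table were compared and 0 differed. Reads were aligned with BWA to mm10 (GRCm38) and compared with edgeR, per the submitters' processing notes, which give no versions; strandedness is not given in the sources used here. Libraries were SPIA-amplified, per the labels' protocols, with no molecular identifiers mentioned, so counts are reads and not molecules.

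Counts were fitted with edgeR 4.0.16 in R 4.3.3: filterByExpr with a minimum count of 10, TMM factors, quasi-likelihood test without a block, Benjamini-Hochberg threshold 0.05 over all genes tested, prior count 0.125. The SE is the absolute log2 fold change over the root of F, and intervals are at 95%. CPM used TMM factors over all 28 libraries, with a prior count of 0.5 for log2 CPM. Genes were named by a fixed rule: the 4 members, the 3 most similar profiles of each, and up to 3 genes of each list with the largest change among those called in the CaMK2a input; the markers named were chosen after their values were seen. Alternatives were other scalings, filters, DESeq2 1.42.0, a joint fit, PV replicates 1 to 3, a replicate block and each library left out. Same-numbered KA and PBS libraries deviated together with r of 0.159 to 0.682 in the PV input. There KA replicate 4 correlated best with PBS replicate 4, while KA replicates 1, 2 and 3 correlated best with PBS replicates 3, 1 and 1. The numbers were thus not shown to be pairs, and the block is an alternative only. In the PV IP the range of r was 0.044 to 0.431, in the CaMK2a input 0.094 to 0.289 and in the CaMK2a IP -0.227 to 0.102. The fit was tested on simulated data.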

Additional observations from a re-analysis of the deposited data

Results flagged for a closer look

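Ubash3b in the PV inputs after KA had 1 library far from the others: replicate 4 held 73.0 CPM while replicates 1 to 3 held 119 to 122 CPM. The gap was 0.944 of the group's range, above Dixon's 95% critical value for 4 libraries. Chance flags about 1 in 20 groups, and 16 groups of 4 were checked. Replicate 4 was also the lowest of the PV inputs after PBS, at 64.2 CPM against 108 to 118 CPM. With replicates 1 to 3 alone the log2 fold change of Ubash3b in the PV input was 0.08, against 0.09 with all 4.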

How the results depend on the processing

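The rises of Tll1, Lbh and Cgref1 in both inputs stayed past the threshold under every alternative run, with log2 fold changes when 1 library was left out of 3.72 to 4.13, 1.92 to 2.39 and 2.86 to 3.17 in the CaMK2a input and 3.45 to 3.68, 1.52 to 1.74 and 2.74 to 2.93 in the PV input. Of 568 values of the 4 genes recomputed, 553 kept their direction and side of the threshold or stayed within the spread, 3 moved and 12 changed sign. The sign changes were all of values near 0, and their cause was not tested: Ubash3b in the PV input (-0.065 to 0.24 with 1 library left out), Ubash3b in the difference between inputs (-0.12 to 0.19 with 1 library left out, -0.031 with PV replicates 1 to 3, -0.0066 with upper-quartile factors) and Tll1 in the CaMK2a IP over input after KA (-0.22 to 0.32 with 1 library left out, -0.023 with upper-quartile factors). Counts over all genes moved more, and the cause was not tested. In the PV input, 915 higher and 374 lower became 1608 and 1150 with replicates 1 to 3, 603 and 214 in a joint fit of the line, 1835 and 1590 with the replicate block, and 658 lower with DESeq2; lower calls ran from 196 to 616 with 1 library left out. In the PV IP, 450 higher and 89 lower became 776 and 285 in the joint fit, and lower calls were 209 with DESeq2, 178 with replicates 1 to 3, 248 with the replicate block and 30 to 164 with 1 library left out. In the CaMK2a IP, 1633 lower ran from 979 to 1924 with 1 library left out. The difference between inputs gave 4 higher with DESeq2, 3 with PV replicates 1 to 3, and 5 higher and 2 lower with the replicate block. The block changed no call of the 4 genes. The PV IP over CaMK2a IP ratio kept its direction for all 4 genes in plain CPM, with upper-quartile factors and with PV replicates 1 to 3, 3 alternatives added after seeing the data. Few counts limit Tll1 in the CaMK2a IP after PBS.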
